A study of Mus musculus with 27 samples.

Results

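The comparison described here is between C2C12 cells expressing the Δpro#3 mutant of NFIA and C2C12 cells expressing full-length NFIA, both at day 7 of adipogenic culture and both treated with forskolin. C2C12 cells are mouse myoblasts of a long-established line, and they fuse into multinucleated myotubes. The samples were chosen by their labels alone: 3 samples of the Δpro#3 mutant with forskolin and 3 of full-length NFIA with forskolin, which makes 6 of the 27 samples of the series. The 3 control samples with forskolin and the day 7 samples without forskolin of the same 3 kinds of cells were used beside them, and the day 0 samples were not. The 18 day 7 samples shared the same history: C2C12 cells were brought to confluence, given an adipogenic mixture (isobutylmethylxanthine, indomethacin, dexamethasone, insulin, T3 and rosiglitazone) and then kept in insulin, T3 and rosiglitazone. With forskolin, cells received 10 µM of the compound for 4 h before collection. Full-length NFIA (3xFLAG-tagged) and the Δpro#3 mutant, which lacks the C-terminal end of the proline-rich domain, were introduced with a retroviral vector. The labels name the cell type of every sample as myoblasts and do not say whether replicates were separate cultures, so p-values measure only the spread between these samples, which may be technical. Polyadenylated RNA was sequenced with a stranded kit, and the question put to the data was how far the mutant and the full-length protein differ in cells with raised cyclic AMP.

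NFIA is a transcription factor of the nuclear factor I family. It binds DNA through its N-terminal domain and acts on transcription through its C-terminal part, and it promotes brown adipocyte differentiation together with PPARγ. Forskolin activates adenylyl cyclase. The cyclic AMP that follows activates protein kinase A, which in brown adipocytes stands for the signal from noradrenaline and β-adrenergic receptors: it starts lipolysis by phosphorylating perilipin and hormone-sensitive lipase, and it phosphorylates CREB, which binds cyclic AMP response elements (CREs) in promoters of early genes such as the NR4A orphan receptors and of Ppargc1a and Ucp1. Myotubes respond to cyclic AMP through the same kinase, with other target genes.

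Values are FPKM, fragments of a gene divided by its length and by the total fragments of the sample, as the authors deposited them. The 6 samples held between 14675435 and 25399502 fragments in genes, and the 3 control samples between 12714515 and 21969037. A median-ratio check over 10145 genes gave factors of 0.924 to 0.928 for the 3 full-length NFIA samples and of 1.01 to 1.03 for the 3 Δpro#3 mutant samples, so that a typical gene read slightly higher in the mutant in FPKM. Unless named as scaled, differences are without scaling, and the median over all genes tested was 0.125 on the log2 scale without and 0.00664 with scaling. Among the 10 adipocyte markers, the summed level was 13120 to 13860 FPKM with full-length NFIA, 558 to 923 FPKM with the mutant and 318 to 331 FPKM in control cells. The 11 myotube markers summed to 1581 to 1946, 11490 to 12340 and 10990 to 13030 FPKM in the same order. The 5 myoblast markers summed to 198 to 245, 933 to 1056 and 696 to 784 FPKM, and the 9 markers of fibroblasts or preadipocytes to 1122 to 1281, 2321 to 2583 and 1401 to 1632 FPKM. Most of the last sum in the mutant was Ly6a (1526 FPKM on average, against 560 FPKM with full-length NFIA and 281 FPKM in control cells), while Pdgfra, Pdgfrb, Col1a1 and Col3a1 were highest in control cells and Cd34 with full-length NFIA. The part of these cells in the results was not tested. The 6 macrophage markers summed to 11.3 to 13.1, 3.94 to 11.4 and 19.6 to 26.7 FPKM, most of it from Cd68, while Ptprc and Adgre1 were at 0 in all of these samples and Lyz2 reached at most 2.30 FPKM (with full-length NFIA). The 4 endothelial and the 4 neural markers summed to at most 1.43 FPKM. Replicate 1 of the mutant stood apart in adipocyte genes: the 38 genes of the adipocyte list summed to 1238, 881 and 925 FPKM in its 3 samples with forskolin, and to 2520.4, 989 and 1101 FPKM in those without, and these were bulk samples, in which fewer cells of a type and less RNA per cell cannot be told apart.

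The introduced gene was measured first. Reads of Nfia (chr4:97439425-97868605, mm9) were abundant in both kinds of cells and nearly absent from control cells, and they were lower with the mutant. The level was 497, 524 and 594 FPKM with full-length NFIA, 344, 262 and 277 FPKM with the mutant and 0.0944, 0.195 and 0.139 FPKM in control cells. The log2 difference of the mutant from full-length NFIA was -0.88 ± 0.0998 (SE; adjusted p = 1.85e-05, limma). Without forskolin, it was -0.23, and the change of this difference with forskolin, -0.65 ± 0.15, passed the test (adjusted p = 0.00657). The mutant transcript lacks a short stretch of coding sequence, and FPKM was divided by the same gene length in both kinds of cells. These reads do not separate the retroviral transcript from the endogenous one, and the part that the lower level had in the results below was not tested. Of the other family members, Nfib (-0.40) and Nfix (-0.62) were lower and Nfic (0.68) was higher in the mutant on the log2 scale, and all 3 passed the adjusted p without reaching 3-fold.

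With forskolin, 751 of 12121 genes differed by more than 3-fold (in FPKM + 1, limma, adjusted p below 0.05) between the mutant and full-length NFIA. In the mutant, 350 genes (2.89% of those tested) were higher and 401 (3.31%) were lower. In all 350 and all 401, the 3 values of the mutant and the 3 of full-length NFIA did not overlap. The call itself favours such genes, so nothing is read from this. By adjusted p alone, 5085 genes (42.0%) were higher and 2938 (24.2%) were lower, a split of 63.4% higher that became 50% (3820 higher and 3817 lower) with scaling. With the 3-fold limit, scaling left 304 higher and 442 lower genes. Without replicate 1 of the mutant, 357 genes were higher and 398 lower.

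**Figure D1:**
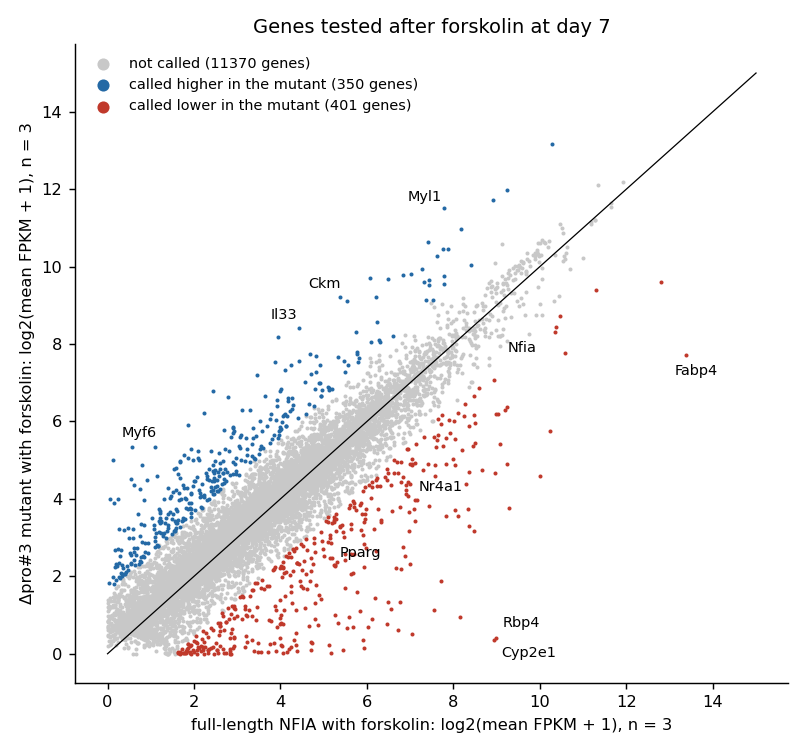
Mean level of each of the 12121 genes tested in full-length NFIA cells (x axis) and Δpro#3 mutant cells (y axis) with forskolin, as log2(mean FPKM + 1) over 3 samples each; the line marks equal levels. The 350 genes called higher in the mutant lie above the line, the 401 called lower lie below it, with Fabp4 at the far right and Rbp4 and Cyp2e1 near the bottom.

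The largest fall in the mutant was in Cyp2e1. Cyp2e1 (cytochrome P450 2E1, chr7:147949638-147960874) was at 522, 449 and 505 FPKM with full-length NFIA and at 0.545, 0 and 0.272 FPKM with the mutant, a log2 difference of -8.62 ± 0.15 (SE; adjusted p = 2.56e-11). Rbp4, the retinol carrier that adipocytes secrete, was at 539, 489 and 484 FPKM against 0.417, 0.229 and 0.334 FPKM (-8.57 ± 0.084, adjusted p = 5.74e-13). Pck1, the cytosolic phosphoenolpyruvate carboxykinase that supplies glycerol backbone in fat cells, was at 123, 135 and 134 FPKM against 0.904, 0.0908 and 0.241 FPKM (-6.59 ± 0.16, adjusted p = 1.79e-10). In each of these genes the mutant samples lay near the control samples, and far below all full-length NFIA samples. Slurp1 (-7.24), Adig (adipogenin, -6.46), Ppp1r1a (a protein phosphatase inhibitor that protein kinase A activates, -6.14), Plin1 (-5.93), Fabp4 (-5.90), Ces1f (-5.79) and Fam213a (-5.73) complete the 10 largest falls on the log2 scale.

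Among 30 adipocyte regulators and markers tested (38 listed), 20 were called lower and 0 higher in the mutant, and the list had a median log2 difference of -2.41, beside 0.125 over all genes. By adjusted p alone, 25 were lower and 3 higher. Fabp4, the fatty acid binding protein of adipocytes (chr3:10204347-10208576), was at 10850, 10224 and 10773 FPKM with full-length NFIA, at 386, 103 and 137 FPKM with the mutant and at 116, 129 and 101 FPKM in control cells. Replicate 1 of the mutant was the highest of its 3 samples and above the control samples, and the other 2 lay close to the range of the control samples; without it, the log2 difference from full-length NFIA went from -5.90 to -6.46. Fabp5 was at 1071, 998 and 992 against 35.3, 15.5 and 18.1 FPKM (-5.50 ± 0.22). Pparg, the nuclear receptor that directs adipogenesis (chr6:115311239-115440419), was at 35.6, 33.5 and 35.9 FPKM with full-length NFIA and 6.198, 6.93 and 5.71 FPKM with the mutant (-2.31 ± 0.0699, adjusted p = 6.29e-10), and at 4.64, 4.84 and 4.98 FPKM in control cells. Cebpa, which acts beside Pparg, was at 47.96, 49.2 and 47.8 against 8.99, 7.51 and 8.63 FPKM (-2.40 ± 0.066). Adiponectin (Adipoq, -5.46), adipsin (Cfd, -5.46), resistin (Retn, -4.93), the melanocortin receptor accessory protein Mrap (-4.67) and LXRα (Nr1h3, -3.52) were lower as well. The early regulator Cebpb did not pass the test (-0.02, adjusted p = 0.847). The 3 that were higher by adjusted p alone were Cebpd (1.43), Slc2a4, the insulin-regulated glucose transporter that muscle also uses (1.26), and Car3 (0.53).

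**Figure D2:**
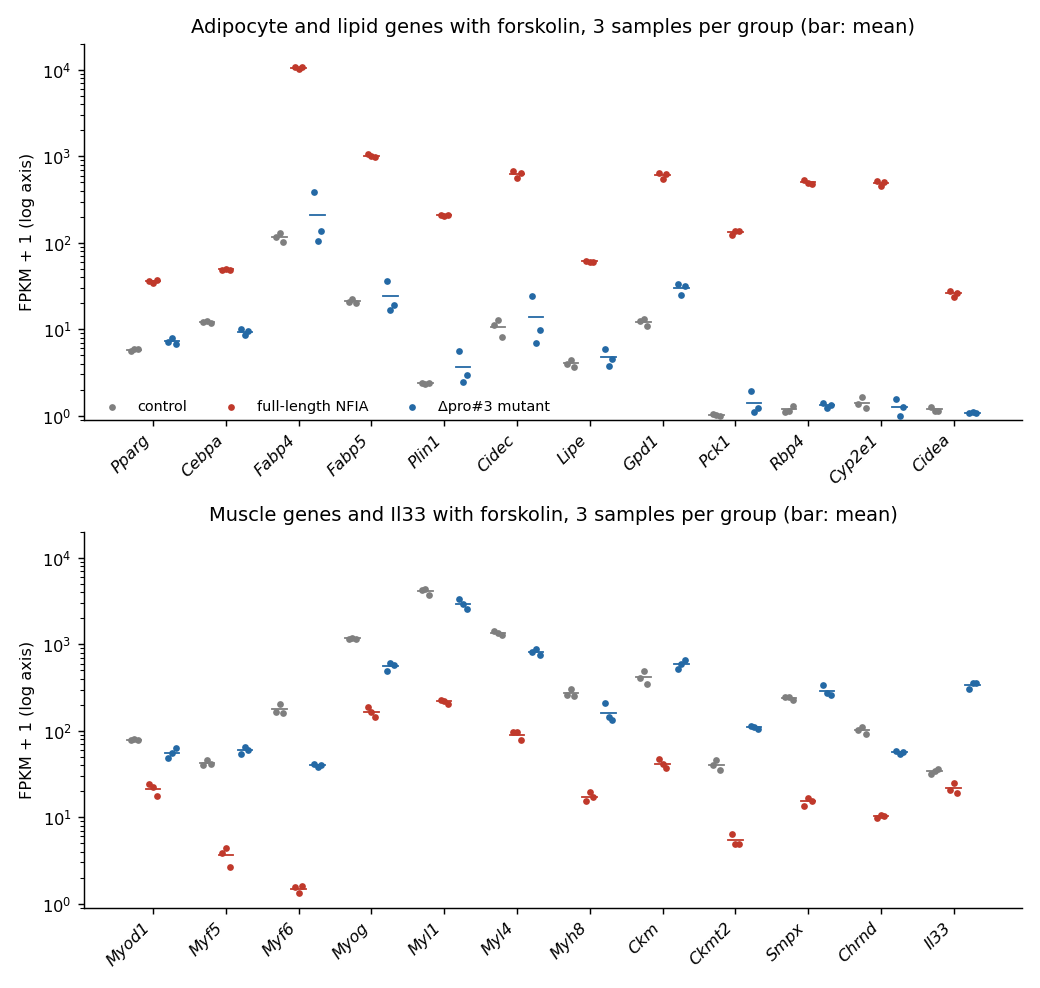
FPKM + 1 on a log axis for 12 adipocyte and lipid genes (upper panel) and for 11 muscle genes and Il33 (lower panel), with forskolin, for 3 samples each of the Δpro#3 mutant, full-length NFIA and control cells; points are samples and bars are means. The mutant lies near the control cells in most of the adipocyte genes and above full-length NFIA in each of the muscle genes, and Il33 is higher in the mutant than in both other groups.

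Lipid droplet and lipolysis genes followed the same direction: of 21 tested, 14 were called lower and 0 higher (median -1.89, and -2.85 with a pseudocount of 0.1). Plin1, the perilipin that gates lipolysis at the droplet surface, was at 209, 204 and 209 FPKM with full-length NFIA and at 4.62, 1.43 and 1.95 FPKM with the mutant (-5.93 ± 0.23, adjusted p = 3.82e-09). Cidec, which enlarges lipid droplets, was at 669, 568 and 641 against 23.4, 5.91 and 8.81 FPKM (-5.72 ± 0.36). Hormone-sensitive lipase (Lipe) was at 60.8, 59.3 and 59.6 against 4.88, 2.72 and 3.54 FPKM (-3.72 ± 0.14). The lipases that act before and after it, Pnpla2 (-3.10) and Mgll (-3.15), were lower too, so that the enzyme of each of the 3 steps of triglyceride breakdown was called lower in the mutant. Pnpla3 was at 19.1, 19.2 and 20.2 against 0.204, 0.153 and 0.161 FPKM (-4.13 ± 0.068). Its difference in log2(FPKM + 1) was smaller with forskolin than without, by 1.10 ± 0.25 (adjusted p = 0.00558). The mutant averaged only 0.173 FPKM with and 0.854 FPKM without forskolin, so this change depends on the pseudocount and is not a fold. The 3 that were higher by adjusted p alone were Plin3 (0.51), Hsd17b11 (0.64) and Fitm1 (0.73).

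Of 28 genes of fatty acid and triglyceride synthesis, 15 were called lower and 0 higher (median -1.84). Glycerol-3-phosphate dehydrogenase (Gpd1) was at 637, 552 and 622 FPKM with full-length NFIA and 32.3, 23.97 and 30.3 FPKM with the mutant (-4.35 ± 0.11). Agpat2, an acyltransferase of triglyceride assembly, was at 536, 472 and 484 against 31.5, 20.5 and 21.7 FPKM (-4.31 ± 0.13). Thrsp, a protein induced with lipogenesis, was at 19.8, 21.005 and 18.1 against 0.552, 0.431 and 0.357 FPKM (-3.83 ± 0.104). Both last steps of assembly, Dgat1 (-2.80) and Dgat2 (-2.97), and the fatty acid synthase Fasn (-2.17) were also lower. For fatty acid oxidation, 24 of 24 genes tested were lower by adjusted p (beside 24.2% of all genes), but only 4 passed 3-fold (beside 3.31%, median -1.10). Among them were Acaa1b of peroxisomes (-4.17), the medium-chain dehydrogenase Acadm (-1.82) and Pdk4 (-1.68), the kinase that turns off pyruvate dehydrogenase. Pdk4 was at 113, 116 and 139.7 against 49.5, 32.5 and 33.02 FPKM and was the weakest of the 4: it fell below 3-fold, to a smallest difference of -1.57, when replicate 3 of full-length NFIA, or replicate 2 or 3 of the mutant, was left out.

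Among 23 brown fat thermogenic genes tested (38 listed), 7 were called lower and 2 higher, beside 3.31% and 2.89% of all genes. By adjusted p alone 12 were lower and 7 higher, beside 24.2% and 42.0% of all genes, and with scaling 15 and 7. The list median was -0.58 on the log2 scale, and the median was -0.37 without replicate 3 of full-length NFIA. Cidea, a lipid droplet protein of brown fat, was at 26.9, 22.3 and 25.6 FPKM with full-length NFIA and at 0.0581, 0.102 and 0.0676 FPKM with the mutant (-4.59 ± 0.087, adjusted p = 4.31e-11). Ucp2, a mitochondrial carrier, was at 1296, 1166 and 1164 against 77.3, 40.97 and 39.3 FPKM (-4.57 ± 0.21). Without forskolin, Ucp2 was at 328, 350.2 and 337 against 52.2, 35.6 and 35.8 FPKM, and the difference changed with forskolin by -1.54 ± 0.27 (adjusted p = 0.000727). Ppargc1a, the coactivator of mitochondrial genes and a known CREB target, was at 12.01, 14.5 and 15.5 against 1.52, 0.982 and 1.09 FPKM with forskolin (-2.77 ± 0.12, adjusted p = 5.96e-09), and at 4.297, 4.25 and 4.16 against 0.926, 1.09 and 1.07 FPKM without. Full-length NFIA samples with forskolin lay above all of their samples without it, and mutant samples overlapped between the conditions; the change of the difference was -1.40 ± 0.14 (adjusted p = 4.24e-06). Its relative Ppargc1b changed by -1.13 ± 0.096 (adjusted p = 7.88e-07). The 2 that were called higher, Ckmt2 (5.41, 3.88 and 3.85 against 113, 110.3 and 104 FPKM) and Gatm (1.73), belong to creatine metabolism, which muscle uses too. Cox7a1, a cytochrome oxidase subunit of brown fat, heart and muscle, was at 25.7, 23.3 and 26.04 against 62.4, 77.4 and 66.7 FPKM (1.42 ± 0.12), higher in the mutant but below 3-fold. Dio2, the thyroid hormone deiodinase, was at 35.3, 39.5 and 36.4 against 38.9, 33.1 and 30.7 FPKM with forskolin and did not pass the test (-0.12, adjusted p = 0.263).

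Ucp1, the uncoupling protein of brown fat, was low in every sample. It was at 0 in the day 7 samples without forskolin of all 3 kinds of cells and in the control samples with it. With forskolin, it was at 1.04, 1.22 and 0.9996 FPKM with full-length NFIA and at 0.452, 0.397 and 0.192 FPKM with the mutant, means of 1.08 ± 0.116 and 0.347 ± 0.137 FPKM (SD, n = 3), which rest on 85 and 30 fragments in all. The samples did not overlap, and the exact permutation test, 2-sided, gave p = 0.1, the smallest that 3 against 3 samples can give. Ucp1 was below the minimum level of the limma fit, but with median-ratio scaling it passed that minimum and the fit gave a difference of -0.70 (adjusted p = 7.25e-05). Ppara (0.402 ± 0.0378 against 0.0403 ± 0.0149 FPKM) and Zfp423 (0.764 ± 0.127 against 0.170 ± 0.0335 FPKM), both regulators of brown or white fat cells and both below the minimum for the fit, also did not overlap and also had an exact permutation p of 0.1.

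Sarcomere genes were higher in the mutant than with full-length NFIA. Of 69 sarcomere and contraction genes tested (72 listed), 61 were called higher and 0 lower, and by adjusted p all 69 were higher (median 2.47). Their summed level was 4714, 4494 and 3999 FPKM with full-length NFIA, 32165, 30303 and 28567 FPKM with the mutant, and 34842, 36934 and 31555 FPKM in control cells, so the mutant samples lay above every full-length NFIA sample and their sums overlapped with those of the control samples. Ckm, the muscle creatine kinase (chr7:19996443-20006932), was at 46.1, 40.1 and 36.004 FPKM with full-length NFIA, 513, 599.6 and 662 FPKM with the mutant (3.83 ± 0.13, adjusted p = 1.69e-09) and 411, 494 and 349.7 FPKM in control cells. The myosin light chain Myl1 was at 229, 222 and 204 against 3319.5, 2949 and 2543 FPKM (3.74 ± 0.11), with 4241, 4342 and 3775 FPKM in control cells. Mybpc1, a myosin-binding protein of slow fibers, was at 5.68, 6.23 and 5.796 against 122, 88.7 and 83.6 FPKM (3.82 ± 0.13). Pgam2, the muscle phosphoglycerate mutase, was at 11.2, 10.3 and 8.27 against 155, 143 and 139 FPKM (3.76 ± 0.11). In Myl1, Mybpc1 and Pgam2, and also in Myl4 and Myh8, the mutant samples lay between full-length NFIA and control cells. Myl4, an embryonic light chain, was at 94.8, 97.1 and 76.3 FPKM with full-length NFIA, at 815, 896 and 746 FPKM with the mutant (3.18 ± 0.101) and at 1436, 1368 and 1301 FPKM in control cells. Myh8, the perinatal myosin heavy chain, was at 14.2, 18.6 and 16.1 FPKM, 207, 142 and 133 FPKM (3.21 ± 0.15) and 261, 301 and 252 FPKM in the same order. The 8 genes that did not reach 3-fold ranged from 0.57 (Ryr3) to 1.49 (Ampd1).

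The myogenic bHLH factors differed by unequal amounts. Of 39 genes of myogenic regulation and fusion tested, 11 were called higher and 0 lower, and 29 were higher and 3 lower by adjusted p (median 1.05). Myf5 and Myf6, which are neighbours on the chromosome (chr10:106919964-106923190 and chr10:106929916-106931785), had the largest differences. Myf5, a factor of proliferating myoblasts, was at 2.85, 3.38 and 1.64 FPKM with full-length NFIA and 53.1, 64.5 and 58.9 FPKM with the mutant (4.07 ± 0.15), above the control cells at 39.6, 44.5 and 40.5 FPKM. Myf6, a factor of mature fibers, was at 0.546, 0.321 and 0.579 against 40.8, 37.6 and 39.4 FPKM (4.77 ± 0.096), and well below the control cells at 166, 203 and 161 FPKM. Myod1 did not reach 3-fold: it was at 23.3, 21.3 and 16.8 against 47.3, 54.7 and 62.9 FPKM (1.39 ± 0.12, adjusted p = 1.83e-06), with the control cells at 77.4, 79.5 and 77.6 FPKM. Its downstream factor Myog was at 186, 162 and 143 against 493, 614 and 575 FPKM (1.77 ± 0.104), with the control cells at 1168, 1188 and 1166 FPKM. The mutant thus lay above control cells in Myf5 and below them in the other 3 factors, and all 4 were lowest with full-length NFIA. Cdkn1c, a cell cycle inhibitor of the list, was lower in the mutant (-1.50), below 3-fold. The subunits Chrnd (2.46) and Chrng (2.34) of the acetylcholine receptor and the kinase Musk (2.32), which gathers that receptor at the synapse, were called higher. Outside the list, the 10 largest rises in the mutant included Ppp1r27 (44.2, 23.2 and 26.2 FPKM, against 3 fragments in the 3 full-length NFIA samples), Smpx (4.24), the muscle ADP-ribosyltransferase Art1 (4.23), Pvalb (3.99), the transcript 2310020H05Rik (3.99) and the predicted gene Gm5662 (4.09), whose level is uncertain where near-identical copies exist, since only unique reads were counted.

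**Figure D3:**
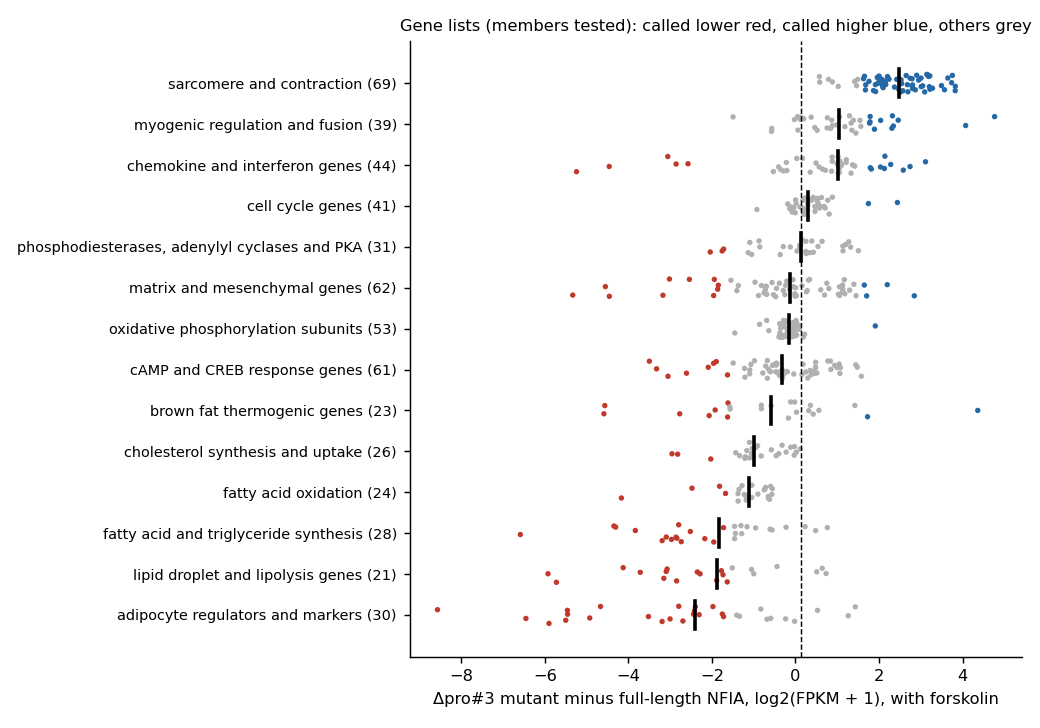
Difference of the Δpro#3 mutant from full-length NFIA with forskolin, on the log2(FPKM + 1) scale, for the tested members of 14 gene lists; each point is a gene, black bars are list medians and the dashed line is the median of 0.125 over all genes tested. Sarcomere genes lie to the right with a median of 2.47, adipocyte genes to the left with a median of -2.41, and cyclic AMP response genes spread on both sides with a median of -0.32.

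The response to cyclic AMP was read from 61 CREB and early response genes. With forskolin, 8 of them were called lower and 0 higher in the mutant (median -0.32), beside 3.31% and 2.89% of all genes. By adjusted p alone, 36 were lower and 21 higher, beside 24.2% and 42.0% of all genes. The list was written with earlier results of these data known, and Tdo2 and Alpl are among the 8. The difference between both kinds of cells was then compared with and without forskolin, as an interaction over the 18 day 7 samples. Over all 12245 genes in that fit, 1932 (15.8%) had a higher and 720 (5.88%) a lower mutant-minus-NFIA difference with forskolin than without, and with scaling these were 1187 and 1127. Of the 61 response genes, 29 had a lower difference with forskolin and 5 a higher one, and with scaling 32 and 5.

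The NR4A receptors, nuclear receptors without a known ligand that are early targets of CREB, had the clearest pattern. Nr4a3 (chr4:48058025-48099319) was at 1.31, 1.18 and 1.02 FPKM with full-length NFIA and at 1.64, 2.19 and 2.24 FPKM with the mutant without forskolin. With forskolin, it was at 47.5, 46.5 and 51.1 against 5.63, 4.38 and 4.899 FPKM, and at 10.8, 12.1 and 9.69 FPKM in control cells. Without forskolin the mutant samples thus lay above full-length NFIA, and with it far below, and the difference changed by -3.53 ± 0.14 on the log2 scale (adjusted p = 1.09e-10). Nr4a1 (chr15:101097277-101105223) was at 12.2, 12.3 and 12.1 against 11.2, 9.81 and 9.88 FPKM without forskolin and at 138, 120.5 and 121 against 17.1, 20.5 and 22.1 FPKM with it (change of the difference -2.39 ± 0.12, adjusted p = 2.72e-09). Nr4a2 was at 0.968, 0.783 and 0.811 against 0.687, 0.7898 and 0.759 FPKM without and at 11.5, 10.1 and 12.2 against 1.58, 2.2005 and 2.75 FPKM with forskolin (-1.88 ± 0.15, adjusted p = 5.76e-07). In all 3 genes, every mutant sample with forskolin was above every mutant sample without it, and below every full-length NFIA sample with it. Control cells averaged 15.5 FPKM of Nr4a1 without and 28.2 FPKM with forskolin. For Nr4a2 these means were 1.10 and 1.43 FPKM, and for Nr4a3 5.15 and 10.9 FPKM.

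The promoters of these 3 receptors are shown because their cyclic AMP response elements are the sites that CREB is known to bind, beside that of Pck1, a metabolic gene with a CRE. Each is the 250 bases before the RefSeq start (GRCm38.p6), read 5′ to 3′ on the strand of the gene, with TGACG and its reverse complement CGTCA, the core of a CRE, in capitals. They lie at chr15:101266596-101266845 (+ strand), chr2:57124004-57124253 (- strand), chr4:48045055-48045304 (+ strand) and chr2:173152823-173153072 (+ strand).
Nr4a1: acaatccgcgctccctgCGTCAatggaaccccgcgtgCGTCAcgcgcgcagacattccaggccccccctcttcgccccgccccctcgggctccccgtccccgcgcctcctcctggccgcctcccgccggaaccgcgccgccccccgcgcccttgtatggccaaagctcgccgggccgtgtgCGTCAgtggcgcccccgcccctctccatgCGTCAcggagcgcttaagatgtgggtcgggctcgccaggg
Nr4a2: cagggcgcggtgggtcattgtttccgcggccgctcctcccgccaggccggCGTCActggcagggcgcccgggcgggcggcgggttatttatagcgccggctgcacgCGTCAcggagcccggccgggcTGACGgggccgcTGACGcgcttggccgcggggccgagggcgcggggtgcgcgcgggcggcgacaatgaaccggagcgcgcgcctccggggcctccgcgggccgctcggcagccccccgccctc
Nr4a3: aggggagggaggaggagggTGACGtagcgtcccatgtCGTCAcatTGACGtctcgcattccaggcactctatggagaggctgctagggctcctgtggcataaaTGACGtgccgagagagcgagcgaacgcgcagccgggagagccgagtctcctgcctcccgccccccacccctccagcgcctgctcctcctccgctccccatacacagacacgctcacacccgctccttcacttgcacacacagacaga
Pck1: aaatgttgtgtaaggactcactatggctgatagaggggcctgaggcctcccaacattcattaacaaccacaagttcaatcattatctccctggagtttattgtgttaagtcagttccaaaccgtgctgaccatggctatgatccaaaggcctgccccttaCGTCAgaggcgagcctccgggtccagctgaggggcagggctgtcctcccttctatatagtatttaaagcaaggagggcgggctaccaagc

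The 3 receptor promoters each held 4 matches to the core and that of Pck1 held 1. Of all 22862 promoters of the table, 17.5% held the core in these 250 bases, and of the 7463 tested genes with a single listed promoter 28.7% did. The share was 54.3% of 35 promoters on the cyclic AMP list, 37.4% of 452 promoters of genes with a lower difference with forskolin and 24.7% of 1089 with a higher one. In genes called lower in the mutant it was 16.2% of 216, and in those called higher 11.8% of 204. The whole palindrome TGACGTCA, which contains the core on both strands, was in 2.97% of promoters of tested genes and in 5.75% of those with a lower difference. CAGCTG, an E-box of the kind that MyoD binds, was in 11.7% of promoters of tested genes, in 25.0% of those called higher and 16.7% of those called lower in the mutant, in 43.9% of 41 sarcomere promoters and in 28.6% of the 35 promoters on the cyclic AMP list. These are counts of letters in a window and do not show a bound site.

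Pck1 itself was at 57.6, 62.4 and 61.2 FPKM without and 123, 135 and 134 FPKM with forskolin in full-length NFIA cells, and at 1.28, 0.139 and 0.216 FPKM without and 0.904, 0.0908 and 0.241 FPKM with forskolin in mutant cells. Here the mutant samples overlapped between the conditions while those of full-length NFIA did not, and the difference changed by -1.20 ± 0.29 (adjusted p = 0.00747). Tdo2, the tryptophan dioxygenase, was at 0.512, 0.654 and 0.322 FPKM without and 9.85, 12.1 and 10.2 FPKM with forskolin in full-length NFIA cells, and at 0, 0 and 0.0346 FPKM without forskolin in mutant cells, so that the samples did not overlap there either. It rested on only 3 fragments over the 3 mutant samples with forskolin (-2.94 ± 0.12, adjusted p = 1.46e-10). Alpl, the tissue-nonspecific alkaline phosphatase, was at 4.54, 5.07 and 5.79 FPKM without and 128, 128 and 119.9 FPKM with forskolin in full-length NFIA cells, and at 0.361, 0.406 and 0.294 FPKM without and 14.04, 10.3 and 10.7 FPKM with forskolin in mutant cells. Its change of the difference, -1.15 ± 0.14 (adjusted p = 3.73e-05), was 0.10 with a pseudocount of 0.1 (adjusted p = 0.854), and in both kinds of cells every sample with forskolin lay above every sample without. Control cells with forskolin had 0.304, 0.3999 and 0.146 FPKM of Alpl, below every mutant sample with forskolin. Atf3, a stress-induced bZIP factor, was at 135, 124 and 119 against 32.1, 30.4 and 24.3 FPKM with forskolin and 30.996, 29.9 and 28.8 against 19.2, 27.2 and 24.3 FPKM without (-1.75 ± 0.15, adjusted p = 9.53e-07). Egr1 was at 21.8, 22.2 and 24.7 against 7.24, 6.23 and 6.77 FPKM with and 20.3, 18.5 and 22.8 against 20.9, 19.02 and 17.1 FPKM without forskolin (-1.52 ± 0.13). In the mutant, its samples with forskolin lay below those without. Control cells fell too, from 11.5, 13.3 and 13.1 FPKM without to 5.25, 5.92 and 5.07 FPKM with forskolin. Atf3 in control cells averaged 59.7 FPKM without and 86.0 FPKM with forskolin.

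**Figure D4:**
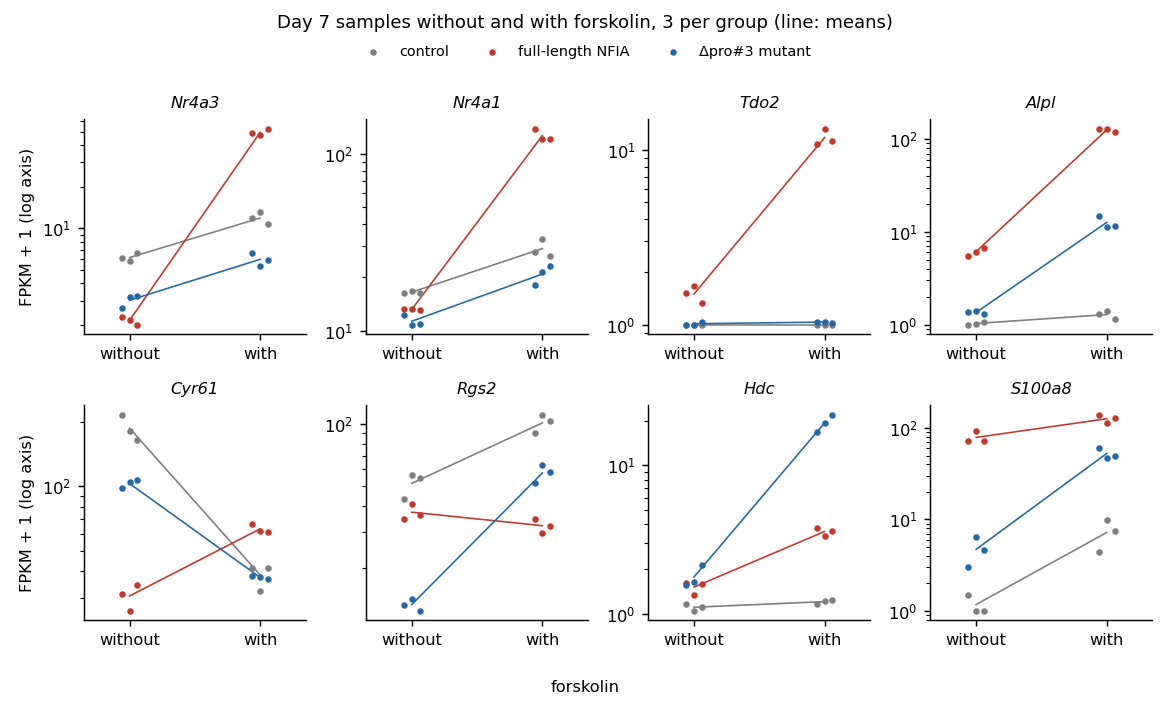
FPKM + 1 on a log axis without and with forskolin for 8 genes at day 7, in the Δpro#3 mutant, full-length NFIA and control cells; points are the 3 samples of each group and lines join the means. Nr4a3, Nr4a1 and Tdo2 are farther apart between mutant and full-length NFIA with forskolin than without, Cyr61 and Rgs2 change order, and Hdc is highest in the mutant with forskolin.

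Other cyclic AMP targets differed in size and direction. Crem was at 6.703, 6.51 and 6.63 against 4.69, 3.56 and 4.3999 FPKM (-0.55 ± 0.087, change of the difference -0.53 ± 0.12), and both kinds of cells had about the same level without forskolin (log2 difference -0.02). Per1 was at 59.1, 67.4 and 63.95 against 37.2, 37.4 and 40.2 FPKM (-0.71 ± 0.0697), and its change of the difference, -0.27, did not pass the test (adjusted p = 0.0602). That change passed the limma interaction with scaling (adjusted p = 0.0181) and with a replicate block (adjusted p = 0.0262). Sik1, a kinase that feeds back on CREB coactivators, was higher in the mutant, at 26.8, 29.3 and 28.04 against 39.6, 40.6 and 41.1 FPKM (0.51 ± 0.062). Without forskolin Sik1 was at 7.07, 5.69 and 6.64 against 13.5, 15.3 and 14.2 FPKM, and its difference was lower with forskolin (-0.53 ± 0.11, adjusted p = 0.00246). Il6 was higher too, at 3.82, 3.81 and 3.34 against 8.06, 16.1 and 12.1 FPKM with forskolin. Fos (-0.95), Dusp1 (-1.01), Maff (-1.05) and Csrnp1 (-1.04) were among the 29 whose difference was lower with forskolin, while the 5 with a higher one were Rgs2, Pfkfb3, Tnfsf11, Il6 and Vegfa. Rgs2, which limits signalling of G proteins, was at 33.7, 39.8 and 35.3 against 12.3, 13.2 and 11.4 FPKM without and 33.5, 28.6 and 31.1 against 50.8, 62.1 and 57.3 FPKM with forskolin, so the mutant went from below to above full-length NFIA (change 2.33 ± 0.15, adjusted p = 2.99e-08).

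**Figure D5:**
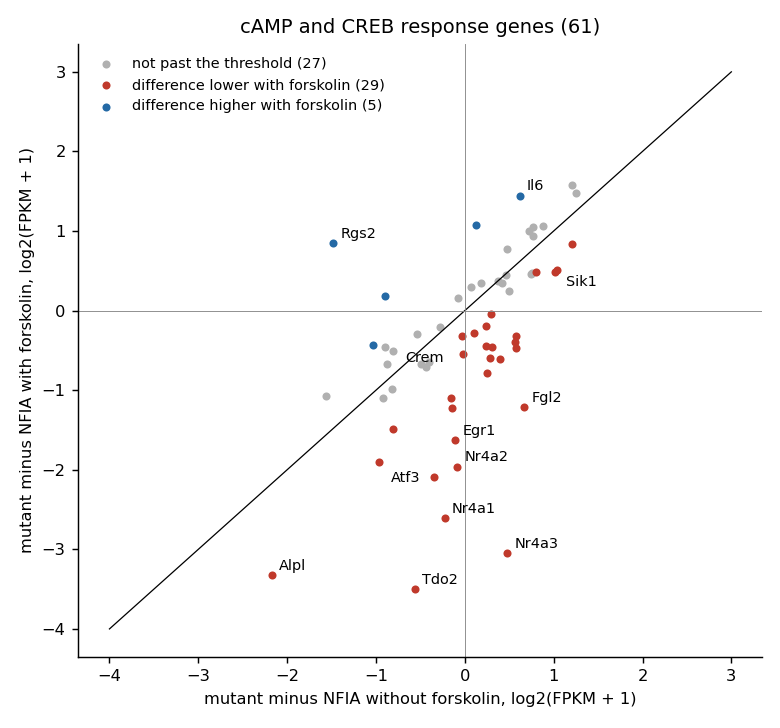
Difference of the Δpro#3 mutant from full-length NFIA without (x axis) and with forskolin (y axis) for 61 cyclic AMP and CREB response genes, on the log2(FPKM + 1) scale; each point is a gene and the line marks equal differences. Below the line lie the 29 genes whose difference was lower with forskolin, with Nr4a3 farthest from it, and the 5 with a higher difference, Rgs2 among them, lie above.

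Genes that make and read cyclic AMP were compared next. Of 31 phosphodiesterases, adenylyl cyclases and genes of protein kinase A tested (46 listed), 3 were called lower and 0 higher, and by adjusted p alone 10 were lower and 14 higher (median 0.13, beside 24.2% lower, 42.0% higher and a median of 0.125 over all genes). With scaling 11 were lower and 10 higher. Prkar2b, a regulatory subunit of the kinase that is abundant in fat, was at 90.6, 108 and 113 FPKM with full-length NFIA and 23.3, 23.7 and 26.1 FPKM with the mutant (-2.04 ± 0.0899). Pde3b, the phosphodiesterase through which insulin restrains lipolysis, was at 42.2, 50.7 and 50.6 against 13.4, 13.6 and 13.2 FPKM (-1.76 ± 0.078). The anchoring protein Akap12 was at 4.799, 5.27 and 6.09 against 0.563, 1.11 and 1.18 FPKM (-1.72 ± 0.13). Without replicate 1 of the mutant, Akap12 was just below 3-fold, at -1.57. Pde4b was higher in the mutant (14.4, 15.9 and 16.7 against 23.1, 27.2 and 24.5 FPKM, 0.64 ± 0.071), and was at 2.42, 2.82 and 2.61 against 5.76, 6.34 and 6.32 FPKM without forskolin. Pde4d, at 8.86, 9.13 and 8.97 against 9.04, 10.4 and 8.39 FPKM, did not pass the test (0.04, adjusted p = 0.673) and its sign turned with scaling. The catalytic subunit Prkaca (-0.12, adjusted p = 0.0508) and Creb1 (0.15, adjusted p = 0.233) did not pass the test.

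Matrix genes went both ways. Of 62 tested, 10 were called lower and 4 higher (median -0.14, and -0.27 with scaling), beside 3.31% and 2.89% of all genes. By adjusted p alone, 27 were lower and 23 higher, beside 24.2% and 42.0% of all genes. Col15a1, a basement membrane collagen, was at 56.9, 68.9 and 66.02 FPKM with full-length NFIA and 0.902, 0.469 and 0.481 FPKM with the mutant (-5.33 ± 0.12). Sfrp1, a secreted Wnt antagonist, was at 37.5, 40.04 and 40.7 against 0.835, 0.652 and 0.684 FPKM (-4.55 ± 0.072). The proteoglycan Fmod was at 27.3, 22.8 and 26.1 against 0.0649, 0.266 and 0.277 FPKM (-4.46 ± 0.095). Col6a2, a chain of type VI collagen, which surrounds both fat and muscle cells, was at 260.0, 260.5 and 262 against 33.4, 24.2 and 27.1 FPKM (-3.17 ± 0.101). The 4 called higher were Ctgf (2.78, 2.05 and 1.81 against 18.2, 23.8 and 24.2 FPKM), Mfap5 (2.20), Igf2 (1.70) and the smooth muscle actin Acta2 (1.65). Ctgf, Cyr61 and Thbs1, which encode matrix proteins, were looked at further after their values were seen. Cyr61 was at 30.3, 25.2 and 33.6 FPKM without and 65.5, 60.9 and 60.3 FPKM with forskolin in full-length NFIA cells, and at 96.6, 103 and 106 FPKM without and 36.9, 36.6 and 35.9 FPKM with forskolin in mutant cells, a change of the difference of -2.51 ± 0.15 (adjusted p = 1.65e-08). Thbs1 was at 93.8, 94.005 and 92.8 FPKM without and 76.9, 95.03 and 88.7 FPKM with forskolin in full-length NFIA cells, and at 147, 104 and 113 FPKM without and 20.97, 20.8 and 22.9 FPKM with it in mutant cells (-2.32 ± 0.15, adjusted p = 2.99e-08). Ctgf itself was at 11.8, 12.2 and 14.5 against 190.1, 198 and 184 FPKM without forskolin (-0.95 ± 0.16, adjusted p = 0.000419). All 3 genes were lower in every mutant sample with forskolin than in every mutant sample without it. In control cells, Cyr61 averaged 186 FPKM without and 37.4 FPKM with forskolin. Thbs1 averaged 96.0 and 15.3 FPKM there, so the fall of Cyr61 and Thbs1 was not particular to the mutant.

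Il33, an alarmin cytokine of stromal cells (chr19:29999604-30035194), was among the 10 largest rises in the mutant. It was at 19.8, 24.2 and 18.01 FPKM with full-length NFIA, at 308, 361 and 359 FPKM with the mutant (3.99 ± 0.103, adjusted p = 2.23e-10) and at 30.5, 33.2 and 35.03 FPKM in control cells. Without forskolin, Il33 was at 2.84, 4.45 and 5.14 FPKM, 41.9, 41.5 and 49.6 FPKM and 12.6, 14.5 and 11.05 FPKM in the same order. The mutant was thus above both other groups in either condition, and its difference from full-length NFIA was larger with forskolin by 0.83 ± 0.21 (adjusted p = 0.00881). Of 44 chemokine and interferon genes tested (59 listed), 9 were called higher and 5 lower (median 1.01), beside 2.89% and 3.31% of all genes. Those called higher were mostly induced by interferon: Ifit1 (1.03, 0.932 and 0.424 against 15.6, 17.7 and 10.6 FPKM, 3.11 ± 0.18), Ifit3 (2.74), Bst2 (2.28), Irf7 (2.14), Isg15 (2.13) and Oasl2 (2.04), beside the chemokines Ccl11 (2.58), Ccl8 (1.82) and Cxcl13 (1.79). Of those called lower, Lcn2, a secreted lipocalin, was at 71.4, 70.8 and 62.3 FPKM with full-length NFIA and 1.43, 0.557 and 0.60002 FPKM with the mutant (-5.24 ± 0.17). Ifi27l2a, which interferon also induces, was at 319.6, 228 and 232 against 20.1, 5.11 and 11.5 FPKM (-4.46 ± 0.34). The chemokine Cxcl14 was at 40.1, 38.6 and 33.6 against 6.63, 2.44 and 2.72 FPKM (-3.06 ± 0.24), and the complement genes C3 (-2.86) and C4b (-2.57) were the others.

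Among 41 cell cycle genes, 2 were called higher (2.89% of all genes were) and 0 lower (median 0.29, and 0.17 with scaling). By adjusted p alone, 17 were higher and 1 lower, beside 42.0% and 24.2% of all genes. Rrm2, a subunit of ribonucleotide reductase, was at 28.2, 30.8 and 23.5 FPKM with full-length NFIA and 144, 159 and 156 FPKM with the mutant (2.44 ± 0.087). Ccnd3, a D-type cyclin that is also high in differentiated muscle, was at 59.5, 56.3 and 48.4 against 176, 184 and 198 FPKM (1.75 ± 0.077). Mki67 (0.21, adjusted p = 0.352) and Top2a (0.37, adjusted p = 0.0905), which mark dividing cells, did not pass the test. Oxidative phosphorylation subunits had small differences. Of 53 tested, 1 was called higher (beside 2.89% of all genes) and 0 lower (median -0.15, and -0.29 with scaling), and this was Cox6a2, the heart and skeletal muscle form of a cytochrome oxidase subunit (49.3, 43.97 and 44.4 against 176, 183 and 166 FPKM, 1.91 ± 0.063). By adjusted p alone, 23 were lower and 2 higher, beside 24.2% and 42.0% of all genes, and with scaling 37 and 1. The lowest of them was Cycs, the electron carrier cytochrome c (-1.45). Of 26 genes of cholesterol synthesis and uptake, 3 were called lower (beside 3.31% of all genes) and 0 higher (median -0.98). Pmvk, the phosphomevalonate kinase, was at 89.1, 90.4 and 92.3 FPKM without and 572, 477 and 513 FPKM with forskolin in full-length NFIA cells, and at 21.1, 17.8 and 17.7 FPKM without and 68.03, 74.9 and 75.2 FPKM with it in mutant cells (-2.82 ± 0.079 with forskolin). In both kinds of cells every sample with forskolin was above every sample without it. The difference of Pmvk changed by -0.61 ± 0.11 with forskolin (limma interaction, adjusted p = 7e-04). Insig1, which holds back sterol synthesis, was at 243, 239.8 and 275 against 30.3, 30.5 and 34.1 FPKM (-2.96 ± 0.072). Lanosterol synthase (Lss) was at 19.3, 18.6 and 21.6 against 3.898, 3.79 and 4.63 FPKM (-2.03 ± 0.081).

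Most of the genes called with forskolin differed by more than 3-fold in the same direction without it as well. Of the 401 genes called lower with forskolin, 395 had the same sign without forskolin and 338 had more than 3-fold there, while 18 had less than 1.5-fold. By the test of the change, which 400 of them entered, the difference moved away from 0 with forskolin in 68 (17%, beside 5.88% of all genes with a lower difference) and towards or past 0 in 77 (19.2%, beside 15.8% of all genes with a higher one). With scaling these were 79 and 52, so which of them was larger turned with scaling. Of the 350 called higher, all had the same sign without forskolin, 256 had more than 3-fold and 14 less than 1.5-fold, and the difference moved away from 0 in 76 (21.7%, beside 15.8%) and towards it in 13 (3.71%, beside 5.88%), and with scaling in 65 and 14. The median log2 difference was -2.27 with and -2.36 without forskolin for the genes called lower, and 2.09 and 2.03 for those called higher. The difference with forskolin chose these genes, which by itself favours a wider difference with it, so nothing is read from these shares and medians. The 18 with less than 1.5-fold in FPKM + 1 before forskolin include Nr4a1, Nr4a2, Nr4a3, Atf3, Egr1, Thbs1 and Igf1, and the vitamin D receptor Vdr (302 against 69.3 FPKM with forskolin). The 14 that were higher include Hdc, Notum, a secreted enzyme that inactivates Wnt proteins (1.99 against 12.4 FPKM with forskolin), and Inhbb (1.46 against 7.66 FPKM). These examples were chosen after their values were seen.

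Reference genes differed little or not beyond the spread of the replicates. Gapdh (-0.09, adjusted p = 0.416) and Actb (0.18, adjusted p = 0.0613) did not pass the test. Rplp0 (0.26, adjusted p = 0.026) and Hprt (-0.22, adjusted p = 0.0142) passed the adjusted p with differences far below 3-fold. With scaling these 4 differences were -0.23, 0.04, 0.12 and -0.35, of which only that of Hprt passed. Klf5, a Krüppel-like factor, was higher in the mutant, at 2.09, 1.82 and 2.02 against 7.48, 7.13 and 8.26 FPKM (1.53 ± 0.071, adjusted p = 1.39e-08), just below 3-fold on this scale.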

How the data were processed

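RNA of 27 samples of C2C12 cells was sequenced, and the 18 samples of day 7 were used here. Per the study's methods, the authors mapped reads to the mouse genome (mm9) with STAR 2.5.3a, kept unique reads of the matched strand and turned the fragments counted per gene into FPKM, which they deposited without scaling between samples. Each table held 24825 genes. Fragment counts could be worked back as whole numbers (tolerance 0.01) and gave the depth, and counting error limits genes with few fragments.

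Groups came from the labels. Differences of the Δpro#3 mutant from full-length NFIA with forskolin were tested with limma 3.58.1 (R 4.3.3) on log2(FPKM + 1), a scale that understates the change of low genes, over the 9 samples with forskolin and the 12121 genes that averaged at least 0.5 FPKM (p-values 2-sided, Benjamini-Hochberg adjusted over all of them). A gene was called at an adjusted p below 0.05 and more than 3-fold in FPKM + 1. Whether the difference changed with forskolin was tested as an interaction over the 18 samples and 12245 genes at an adjusted p below 0.05. The steps were tested on simulated data. Genes below the minimum were given an exact permutation test with scipy 1.17.1. The members, gene lists and tests were chosen with earlier results of these data known. Named genes were the 10 largest rises and falls, up to 4 called members of each list, the 5 largest changes of the difference in each direction, genes that the study follows, 7 indicators of cyclic AMP and 4 reference genes, and every other gene was named after its values were seen. In the lists, 6 symbols were updated through RefSeq synonyms and Hmgcs1 was not found. Gene positions are from an mm9 annotation (GENCODE) and promoters from RefSeq (GRCm38.p6), matched by symbol where the symbol has 1 entry. Same-numbered samples did not all deviate together, between kinds of cells or between conditions, so replicate numbers were not used as a block. Alternatives were another pseudocount, median-ratio scaling, other minimum levels and thresholds, moderation without a trend, fewer groups in the fit, a replicate block, limma-voom on the fragments and leaving out each sample.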

Additional observations from a re-analysis of the deposited data

Results flagged for a closer look

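For 10 genes the difference of the Δpro#3 mutant from full-length NFIA was itself tested to differ between cells with and without forskolin, and these were the 5 largest changes in each direction among genes of at least 1 FPKM on average. Those that were lower with forskolin were Nr4a3 (-3.53 on the log2 scale), Tdo2 (-2.94), Mir1938 (-2.52), Cyr61 (-2.51) and Nr4a1 (-2.39). Those that were higher were S100a8 (2.86), Mir6392 (2.54), Gm6093 (2.47), Rgs2 (2.33) and Hdc (2.20). All passed the limma interaction, with adjusted p between 1.09e-10 (Nr4a3) and 0.0112 (Mir1938), and Mir1938 and Mir6392 did not pass with a pseudocount of 0.1 (adjusted p = 0.261 and 0.301).

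S100a8, a calcium-binding protein of the calprotectin complex, was at 71.2, 91.5 and 71.2 FPKM with full-length NFIA and 2.03, 5.46 and 3.602 FPKM with the mutant without forskolin. With forskolin it was at 138, 112 and 127 against 60.2, 46.1 and 49.01 FPKM, and at 3.37, 8.79 and 6.42 FPKM in control cells. The mutant thus stayed below full-length NFIA in both conditions, with a smaller difference with forskolin. Hdc, the histidine decarboxylase that makes histamine, was at 0.6099, 0.344 and 0.584 against 0.553, 0.627 and 1.13 FPKM without and 2.78, 2.36 and 2.603 against 15.8, 18.2 and 20.8 FPKM with forskolin, where control cells had 0.171, 0.224 and 0.229 FPKM. Its samples overlapped without forskolin and did not with it. The predicted gene Gm6093 was at 2.13, 1.94 and 1.92 FPKM without and 17.3, 12.7 and 15.2 FPKM with forskolin in mutant cells and rested on 7 fragments over the 3 full-length NFIA samples with forskolin. Its level is uncertain where near-identical copies exist, since only unique reads were counted.

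The fragments of Mir1938 and Mir6392, short genes that polyadenylated libraries cover poorly, were few. Mir1938 rested on 48 fragments with full-length NFIA and 8 with the mutant with forskolin, and Mir6392 on 18 and 0. Without forskolin, Mir6392 was at 32.9, 41.4 and 25.1 FPKM with full-length NFIA and 1.64, 0 and 0 FPKM with the mutant, and with forskolin at 5.05, 1.06 and 4.87 FPKM with full-length NFIA. Its fitted change depends on the pseudocount and is not a fold.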

How the results depend on the processing

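The 350 genes called higher and 401 called lower with forskolin became 612 and 555 with a pseudocount of 0.1, 661 and 577 with limma-voom on the fragments, 823 and 755 with a 2-fold threshold and 5085 and 2938 with no fold threshold. Leaving out each of the 9 samples in turn gave 340 to 357 genes higher and 391 to 401 lower. A minimum of 5 FPKM gave 293 and 278, with fewer genes tested. The 1932 higher and 720 lower changes of the difference became 1187 and 1127 with median-ratio scaling, and 1475 to 2021 and 581 to 793 with each of the 18 samples left out. The causes were not tested.

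Among the named genes, 2 results turned their sign. Pde4d, which did not pass the test under any alternative, went from 0.04 to -0.0887 with scaling and to -0.0407 without replicate 2 of the mutant, with a range of -0.0407 to 0.0992 over samples left out. The change of the difference of Alpl went to 0.10 with a pseudocount of 0.1. Klf5 passed 3-fold with a pseudocount of 0.1 (1.89) and with limma-voom (1.95). The change of the difference of Pde4b no longer passed without 1 of 7 samples, and that of Per1 passed in 6 settings, scaling and the replicate block among them. Replicate numbers did not pair the 9 samples with forskolin (correlation of deviations of same-numbered samples -0.164 to 0.0772). Between the conditions within the same cells, the correlation was 0.102 to 0.358 for the mutant, -0.167 to 0.151 with full-length NFIA and -0.122 to 0.108 in control cells. With the replicate block, 350 genes were higher and 401 lower, and 1913 and 738 changes of the difference passed. Depth limits the genes named with their fragments.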

Other observations

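Vdr, the vitamin D receptor, was at 17.2, 22.2 and 20.8 FPKM with full-length NFIA and 17.4, 15.7 and 18.1 FPKM with the mutant without forskolin, and at 304, 298 and 304 against 68.4, 71.5 and 67.8 FPKM with it (change of the difference -1.89 ± 0.11, adjusted p = 1.3e-08). Control cells had 11.4, 13.6 and 12.7 FPKM without and 111, 116 and 108 FPKM with forskolin, so that their samples with forskolin lay between those of the other 2 groups. Igf1, the insulin-like growth factor, was at 17.4, 18.4 and 16.5 against 16.4, 9.301 and 11.8 FPKM without and 13.98, 16.3 and 16.8 against 4.604, 3.37 and 3.05 FPKM with forskolin (-1.36 ± 0.25, adjusted p = 0.000974). Here the samples of full-length NFIA overlapped between the conditions, and those of the mutant were lower with forskolin.

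In the other direction, Notum, which inactivates Wnt proteins, was at 4.19, 5.602 and 5.03 against 7.58, 6.32 and 5.203 FPKM without and 2.06, 1.76 and 2.15 against 16.7, 10.3 and 10.1 FPKM with forskolin (1.83 ± 0.22, adjusted p = 2.66e-05). Control cells had 2.57, 2.97 and 3.08 FPKM without and 20.3, 23.5 and 18.7 FPKM with forskolin. Inhbb, a subunit of activin B, was at 7.54, 6.83 and 7.897 against 10.4, 11.3 and 10.6 FPKM without and 1.49, 1.38 and 1.498 against 4.91, 9.36 and 8.703 FPKM with forskolin (1.29 ± 0.22, adjusted p = 0.000693). Inhbb was lower with forskolin in both kinds of cells, and these 4 genes were picked after their values were seen.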
